A study of Rattus norvegicus with 2 samples.

Results

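Cytochrome P450 enzymes of families 2, 3 and 4 are haem proteins of the endoplasmic reticulum that insert oxygen into drugs, steroids and fatty acids with electrons passed on by P450 reductase. Families 2 and 3 hold most of the enzymes that clear drugs, and family 4 mainly oxidises the far end of fatty acids and of lipid mediators made from arachidonic acid. In the small intestine they sit chiefly in villus enterocytes, where they act on swallowed compounds before these reach the liver. The members were every probe set, the array's unit of measurement for a transcript, whose annotated symbol or symbols on the rat U34A array begin with Cyp2 or Cyp4 followed by a letter, or with Cyp3a. This gave 68 of 8799 probe sets, 47 of family 2, 8 of subfamily 3A and 13 of family 4, which carry 39 gene symbols. Of the 68, 57 name 1 gene and 11 name several near-identical genes.

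The study set the duodenal mucosa of a male Wistar rat aged 15 weeks, kept in an immobilization cage for 2 weeks, against that of a male Wistar rat of the same age kept in a metabolic cage over those 2 weeks. Each rat gave 1 array, so there are no replicates, no test between the conditions was possible, and every difference below is between 2 arrays and cannot be set against the spread between animals. No genotype or drug treatment is named for either animal, and the sources used here do not mention pooling. The values are array signals on a linear scale, and those of the immobilized rat were multiplied by 1.016, which set the median log2 ratio of detected probe sets to 0. The floor, the level above which a signal was taken as detected, was the 50th percentile of all signals, 39.9 units. Ratios were formed only where both arrays exceeded it. Their technical SD was 0.31 on the log2 scale, the spread between probe sets of the same gene (696 genes, 1570 probe sets). Sets of a gene share the same 2 arrays, so this SD leaves out error common to a whole array and the spread between animals. Signals of different probe sets are not comparable as levels, since each set binds its target with its own strength.

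The tissue label was checked on marker genes. All 16 villus enterocyte markers on the array were detected in both rats, with a summed signal of 65953 in the control rat and 58208 in the immobilized rat. Hepatocyte markers were detected in both rats for 3 of 15, with summed signals of 407 and 424, and albumin (Alb), which defines that cell type, had signals of 27.9 and 22.2. Exocrine pancreas markers were detected in both rats for 17 of 19, with summed signals of 7710 in the control rat and 14180 in the immobilized rat. Whether pancreatic tissue had a part in any P450 difference was not tested.

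The upstream sequences of the Cyp3a genes and of the Cyp4a pair measured by 1 shared probe set are given first, because the signals divided these close relatives into detected and undetected members and because the only detected set of Cyp4a2 or Cyp4a3 is annotated to both genes. Cyp3a genes are classic targets of the pregnane X receptor and Cyp4a genes of the peroxisome proliferator receptor, nuclear receptors that bind hexamers such as AGGTCA or the related AGTTCA. Each run is the 250 bases before the annotated start from the RefSeq promoter table for the GRCr8 assembly, a reference of another rat strain, written 5′ to 3′ on the gene's strand. Capitals mark the hexamer AGGTCA, the related hexamer AGTTCA or the TATA-box core TATAAA on either strand. The windows are Cyp3a9 at chr12:21960161-21960410 (minus strand), Cyp3a18 at chr12:13994062-13994311 (plus strand), Cyp3a23-3a1 at chr12:14398804-14399053 (minus strand), Cyp3a2 at chr12:14343858-14344107 (minus strand), Cyp4a2 at chr5:134170909-134171158 (minus strand) and Cyp4a3 at chr5:134352237-134352486 (minus strand).
Cyp3a9: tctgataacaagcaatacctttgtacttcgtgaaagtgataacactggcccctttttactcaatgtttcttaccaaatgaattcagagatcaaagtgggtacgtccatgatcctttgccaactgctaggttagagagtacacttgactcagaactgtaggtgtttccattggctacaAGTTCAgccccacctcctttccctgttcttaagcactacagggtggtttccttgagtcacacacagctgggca
Cyp3a18: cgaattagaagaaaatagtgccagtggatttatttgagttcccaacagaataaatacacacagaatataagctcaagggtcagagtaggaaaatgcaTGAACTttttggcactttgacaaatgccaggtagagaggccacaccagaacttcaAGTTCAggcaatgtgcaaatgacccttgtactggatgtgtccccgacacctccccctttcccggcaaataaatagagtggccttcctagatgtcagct
Cyp3a23-3a1: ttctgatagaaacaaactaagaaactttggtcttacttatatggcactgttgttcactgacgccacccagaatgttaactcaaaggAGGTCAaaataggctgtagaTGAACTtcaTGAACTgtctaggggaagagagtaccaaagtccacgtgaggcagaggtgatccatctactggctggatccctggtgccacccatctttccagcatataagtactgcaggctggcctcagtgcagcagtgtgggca
Cyp3a2: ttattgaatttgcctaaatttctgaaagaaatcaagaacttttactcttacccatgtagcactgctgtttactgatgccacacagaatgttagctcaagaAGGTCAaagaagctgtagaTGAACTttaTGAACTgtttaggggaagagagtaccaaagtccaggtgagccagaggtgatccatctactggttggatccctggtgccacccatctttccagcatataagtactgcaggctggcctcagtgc
Cyp4a2: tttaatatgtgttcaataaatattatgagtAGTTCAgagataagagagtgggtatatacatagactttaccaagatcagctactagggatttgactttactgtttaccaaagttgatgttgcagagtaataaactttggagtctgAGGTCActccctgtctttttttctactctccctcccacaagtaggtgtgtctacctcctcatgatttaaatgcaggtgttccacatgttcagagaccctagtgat
Cyp4a3: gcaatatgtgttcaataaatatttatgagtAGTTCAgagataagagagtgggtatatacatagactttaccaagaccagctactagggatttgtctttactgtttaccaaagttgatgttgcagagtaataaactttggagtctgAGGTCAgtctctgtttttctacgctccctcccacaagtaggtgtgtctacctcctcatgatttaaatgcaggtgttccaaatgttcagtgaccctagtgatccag

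The 4 Cyp3a windows each held AGTTCA on at least 1 strand, at 73 bases before the start in Cyp3a9 and at 153 and 98 in Cyp3a18. In Cyp3a23-3a1 and Cyp3a2 it stood as a direct repeat with a spacer of 3 bases, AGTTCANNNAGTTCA, read on the reverse strand and without overlap with the other marked hexamer, AGGTCA. That repeat was present in 2 of 33469 promoter windows of the table, those of these 2 genes. AGTTCA repeated with a spacer of 1 base, and AGGTCA repeated with a spacer of 1 or 3, were also searched. These other repeats were present in 0 member windows, those of Cyp4a2 and Cyp4a3 included. The windows of Cyp3a23-3a1 and Cyp3a2 were 79.2% identical when aligned, whereas Cyp3a9 was 56.0% identical to Cyp3a23-3a1. The windows of Cyp4a2 and Cyp4a3 were 92.5% identical and both held AGTTCA at 220 and AGGTCA at 105 bases before the start. Of the 39 member genes, 33 had a window in the table. AGGTCA on either strand was found in 30.3% of these 33 windows and in 14.1% of all windows, AGTTCA in 30.3% and 12.2%, and TATAAA in 33.3% and 12.9%. Such matches describe letters and not binding, and many of these windows belong to duplicated genes and so are not independent of each other.

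Among the 68 probe sets, 31 (45.6%) were above the floor on both arrays, 3 on 1 array and 34 on neither. Over all 8740 probe sets without array controls the share above the floor on both arrays was 47.0%, close to that of the P450 families. The share differed between subfamilies. All 5 Cyp2d probe sets were detected on both arrays, as were 7 of 11 for Cyp2b, 4 of 5 for Cyp4f, 5 of 8 for Cyp3a, 2 of 3 for Cyp2j and the only set for Cyp4b, but only 1 of 17 for Cyp2c.

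**Figure D1:**
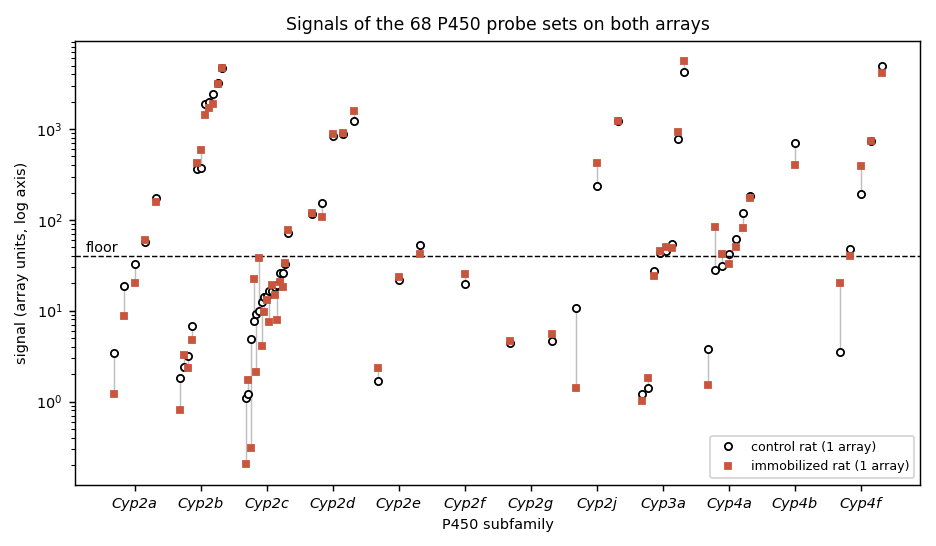
Signal on a log axis (array units) of the 68 P450 probe sets by subfamily, with open circles for the control rat's array, filled squares for the immobilized rat's array, a grey line joining the same probe set and the dashed line at the floor of 39.9. Of 17 Cyp2c probe sets 16 lie below the floor on both arrays, whereas all 5 Cyp2d sets lie above it. Heights of different probe sets are not comparable as levels.

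The undetected members included several classic liver enzymes. Cyp2c11, the main P450 of male rat liver, had 3 probe sets with signals of 7.7 to 25.7 in the control rat and 9.65 to 22.6 in the immobilized rat. Cyp2c12, its counterpart in female liver, stayed at or below 1.2 in the control rat and 1.73 in the immobilized rat over 2 probe sets. Cyp2c13, another male liver enzyme, reached 19.0 and 7.93 over 2 sets. The other Cyp2c sets below the floor on both arrays were those of Cyp2c6v1, Cyp2c7, Cyp2c7l1/Cyp2c7 and Cyp2c22 and 2 of the 3 for Cyp2c23. Over the 16 Cyp2c sets the median signal was 14.4 in the control rat (1.1 to 32.3) and 11.4 in the immobilized rat (0.203 to 37.7).

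Outside Cyp2c, Cyp3a2, the male-specific Cyp3a of liver, had signals of 1.2 and 1.02, and the set that covers Cyp3a2 and Cyp3a23-3a1 together had 27.3 and 24.2. Cyp2e1, the ethanol-inducible enzyme, was below the floor at 2 of 3 sets and just above it at the other, with 52.6 in the control rat and 41.6 in the immobilized rat. Genes known from other organs were in part undetected, whereas Cyp4b1, Cyp2b15, Cyp2c23 and Cyp2d4, described with their ratios, were detected. Cyp2g1 and Cyp2a3, both known from nasal tissue, stayed at or below 18.5 in the control rat and 8.74 in the immobilized rat. The lung enzyme Cyp2f4 had 19.8 and 25.1, and Cyp2b12, known from sebaceous glands, 2.4 and 3.25. Cyp2b3 stayed at or below 6.7 in the control rat and 4.78 in the immobilized rat over 3 sets. The list of sets below the floor was completed by Cyp2a2 (32.5 and 20.1), a set of Cyp2j3 (10.7 and 1.42), a set of Cyp3a23-3a1 (1.4 and 1.83), Cyp4a3 (3.8 and 1.52) and Cyp4f4 (3.5 and 20.1). The nearest to the floor from below was a Cyp2c23 set, with 37.7 in the immobilized rat and 9.9 in the control rat, and the nearest from above was Cyp4f17, with 40.0 in the immobilized rat and 48.3 in the control rat. No fold is given for any set below the floor on both arrays.

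Most of the detected P450 signals were similar in both rats. Of the 31 ratios 16 were above 0 and 15 below, the median log2 ratio was 0.01, and 27 differed by less than 1.5-fold. Among these 31 a single set, that of Cyp4f5, reached a 2-fold higher signal after immobilization and none a 2-fold lower one, where 2.34% of all 4105 probe sets with a ratio were 2-fold higher and 0.853% 2-fold lower. At 1.5-fold, 3 were higher (9.68%) and 1 lower (3.23%), against 8.89% and 5.46% over all. The spread of the member ratios was an SD of 0.39 on the log2 scale and that over all probe sets 0.44, and 64.5% of members lay within the technical SD of 0, against 60.0% over all. The sign of the median changed with the settings tried (-0.05 to 0.03). A lower signal in such a tissue sample can come from fewer cells that express a gene or from less RNA in each cell, and these cannot be told apart.

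**Figure D2:**
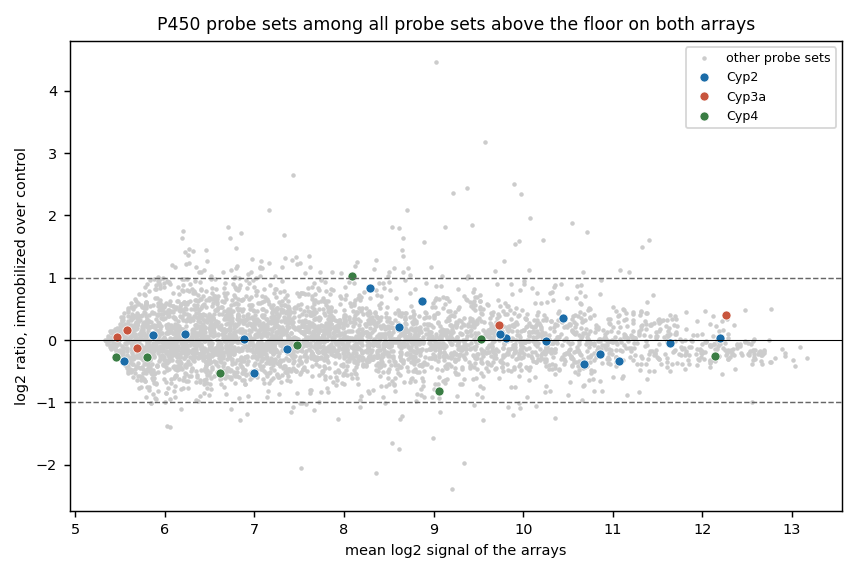
Log2 ratio of immobilized over control against the mean log2 signal for all 4105 probe sets above the floor on both arrays (grey) and for the 31 P450 sets (coloured by family), with dashed lines at a 2-fold difference. The P450 sets lie within the cloud of all probe sets, from -0.82 to 1.03.

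Family 2 showed no common direction. Of its 18 ratios 10 were above 0 and 8 below, with a median of 0.02 whose sign changed with the settings tried (-0.05 to 0.04). The Cyp2d genes form a neighbouring cluster in GRCr8 and metabolise many basic drugs, and 3 of their 5 sets lay within the technical SD of 0. Cyp2d2 had signals of 888 in the control rat and 905 in the immobilized rat, Cyp2d3 had 117 and 119, and the set shared by Cyp2d5 and Cyp2d1 had 830 and 884. Their log2 ratios were 0.03, 0.02 and 0.09, and the sign of that for Cyp2d3 changed with the scaling. Cyp2d4, known as the main Cyp2d of rat brain, was measured by 2 sets that went opposite ways, one from 1229 to 1569 (0.35) and the other from 154 to 106 (-0.53).

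The Cyp2b genes encode the phenobarbital-inducible enzymes, and Cyp2b1 and Cyp2b2 are close relatives. Of the array's sets, 3 are annotated to both, 2 to Cyp2b2 alone and none to Cyp2b1 alone. The set K01721mRNA_s_at, annotated to Cyp2b2, read 4650 in the control rat and 4755 in the immobilized rat, and K00996mRNA_s_at, annotated to both genes, read 3245 and 3146. Their log2 ratios of 0.03 and -0.04 lay within the technical SD, and the sign of the latter changed with the scaling. The 3 further sets for Cyp2b2, or for Cyp2b2 and Cyp2b1, carry the suffix _f, which the manufacturer gives to sets whose probes match a family of sequences, and were lower in the immobilized rat. Their signals were 1869 and 1437, 1997 and 1721, and 2412 and 1905, with ratios of -0.38, -0.22 and -0.34. A set annotated to Cyp2b15, known from sebaceous glands, went the other way from 376 to 580 (1.54-fold higher), and a set shared by Cyp2b15 and Cyp2b2 from 365 to 423 (0.21). Both of these also have the suffix _f, and how far they read Cyp2b1 or Cyp2b2 was not tested. Since 6 of these 7 sets carry the symbol Cyp2b2, they are not separate measurements of different genes.

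Cyp2j3 encodes an epoxygenase that turns arachidonic acid into epoxides. Its set U39943_s_at was nearly equal in both rats, with signals of 1231 in the control rat and 1221 in the immobilized rat, while U40004_s_at was 1.79-fold higher in the immobilized rat, from 234 to 418. The log2 ratios of -0.01 and 0.84 differed by 0.85, where the technical SD of a single set was 0.31. The remaining Cyp2j3 set was below the floor. Cyp2c23, an epoxygenase known from kidney, was the detected Cyp2c member, with 72.3 and 77.5 at 1 set (0.10). Cyp2a1, a testosterone hydroxylase, had 173 and 158 (-0.14), and a set shared with Cyp2a2 had 56.7 and 60.3 (0.09).

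Of the 5 Cyp3a ratios 4 were above 0 and 1 below, 4 lay within the technical SD, and none reached 1.5-fold. Cyp3a9, an enzyme known from rat intestine, went from 4262 in the control rat to 5623 in the immobilized rat, 1.32-fold higher, and Cyp3a18, which oxidises steroids, from 782 to 926, 1.18-fold higher. The log2 ratios were 0.40, the only Cyp3a ratio beyond the technical SD of 0.31, and 0.24. The 3 detected sets of Cyp3a23-3a1, the dexamethasone-inducible Cyp3a of liver, had 45.3 and 50.5, 43.3 and 44.9, and 54.2 and 49.6, close to the floor on both arrays. Their ratios of 0.16, 0.05 and -0.13 lay within the technical SD. The sets at 0.16 and 0.05, L24207_i_at and L24207_r_at, carry the same sequence name and so are not separate support. The median of the 5 sets was 0.16. It was 0.24 without sets of the suffixes _f, _r and _i, 0.33 for the floor at percentile 70, and 0.03 with a pseudocount of 20 units and no floor.

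Family 4 held the highest and the lowest ratio among the members. Of its 8 ratios 6 were below 0, and 5 of the 8 lay within the technical SD. The median of the 8 was -0.26 (-0.06 for the floor at percentile 70). Cyp4f5, a fatty acid and leukotriene hydroxylase, had a signal of 190 in the control rat and 388 in the immobilized rat. It was 2.04-fold higher, a log2 ratio of 1.03 at percentile 97.8 of all ratios, and was the single member past 2-fold among those above the floor on both arrays. It passed that threshold narrowly, and after quantile normalization its ratio was 0.99. The other detected Cyp4f members had ratios nearer to 0. Cyp4f6 read 735 in the control rat and 741 in the immobilized rat (0.01, a sign that changed with the scaling), and Cyp4f1, which oxidises fatty acids and leukotrienes, 4938 and 4149 (-0.25). Cyp4f17 was near the floor, at 48.3 and 40.0 (-0.27).

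Cyp4b1, an enzyme best known from lung that also oxidises fatty acids, was the lowest member. Its signal was 710 in the control rat and 401 in the immobilized rat, 1.77-fold lower, a log2 ratio of -0.82 at percentile 1.92 of all ratios. Over the settings tried its ratio lay between -0.85 and -0.79. Cyp4f5 and Cyp4b1 were 3.32 and 2.66 technical SDs from 0, on opposite sides. Over all 4105 probe sets with a ratio, 514 were more than 2 technical SDs from 0, as were 4 of the 31 members. Cyp4f5 and Cyp4b1 were each measured by a single probe set, so no second set bears on either value.

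The Cyp4a genes encode the fatty acid omega-hydroxylases that peroxisome proliferators induce. Cyp4a1 was lower in the immobilized rat at both of its sets above the floor, from 183 to 174 (-0.08) and from 118 to 82.1 (-0.53), and its remaining set read 42.4 in the control rat and 33.0, below the floor, in the immobilized rat. Cyp4a8 had 61.3 and 50.7 (-0.27) at 1 set and 31.3 and 41.7 at the other, which was above the floor only in the immobilized rat, at least 1.04-fold higher. The set shared by Cyp4a3 and Cyp4a2 had 27.7 in the control rat, below the floor, and 82.4 in the immobilized rat, at least 2.06-fold higher. The Cyp4a3 set was below the floor on both arrays. Thus the 3 Cyp4a ratios were below 0, and 2 of them lay within the technical SD. Of the Cyp4a sets above the floor on 1 array, that of Cyp4a1 was lower. The Cyp4a8 set and the shared Cyp4a3 and Cyp4a2 set were higher.

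**Figure D3:**
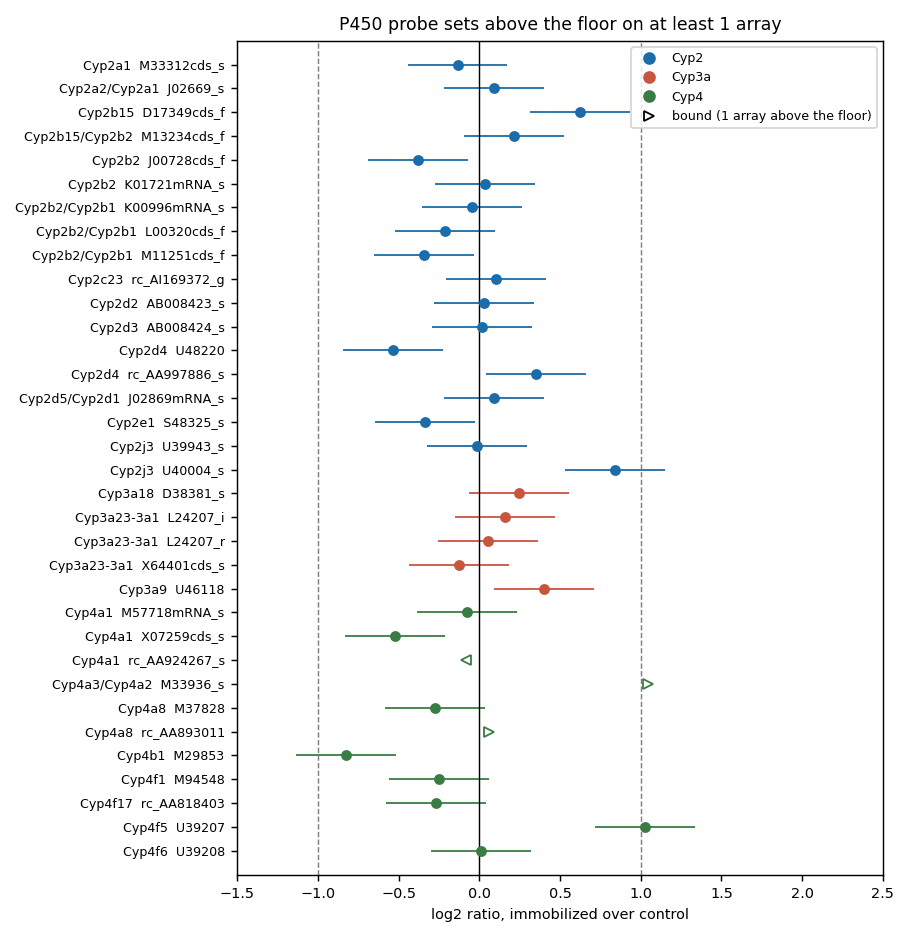
Log2 ratio of immobilized over control for the 34 P450 probe sets above the floor on at least 1 array, with bars of 1 technical SD (0.31), open triangles for bounds and dashed lines at a 2-fold difference. Among the 31 ratios Cyp4f5 is the highest at 1.03 and Cyp4b1 the lowest at -0.82, a Cyp2j3 set lies at 0.84, and paired sets of Cyp2d4 and Cyp2j3 disagree.

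The agreement between sets of the same symbols gives a partial measure of the precision of these values. Among members, 6 symbols or symbol pairs had more than 1 ratio (14 sets), and these differed with an SD of 0.36 on the log2 scale. Over all genes the same SD was 0.27 where every set of a gene had a mean signal of at least 200 and 0.34 where a set was dimmer. Of the 31 member sets, 17 exceeded 200 on both arrays and 7 had a signal under 1.5 times the floor.

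Of 14 genes of electron transfer and haem metabolism with a probe set, all above the floor, 10 were lower and 4 higher in the immobilized rat at their brightest set, none at 2-fold. The median was -0.24, or -0.12 with the mean over a gene's sets, where that of all probe sets was 0. Over all 4105 probe sets with a ratio, 2052 were lower. The lower genes included Pgrmc1 (-0.002) and Alad (-0.01), and the higher ones Hmox1 (0.002), all near 0. Cyb5r3 was lower at its brightest set (-0.20), while its other sets ranged from 0.02 to 0.43. Por, the reductase that feeds all microsomal P450 enzymes, had 1089 in the control rat and 893 in the immobilized rat (-0.29), with -0.44 and -0.28 at its other sets. Cyb5a, cytochrome b5, had 966 and 776 (-0.32), while its other sets ranged from -2.13 to -0.47. Farthest from 0 at the brightest set were Cyb5r1, a cytochrome b5 reductase (-0.62, 88.9 to 57.7), Fdx1, the electron carrier of mitochondrial P450 enzymes (0.54, 356 to 519), Urod, a haem synthesis enzyme (0.50, 104 to 147), and Cyb5b, a mitochondrial cytochrome b5 (-0.45, 663 to 486). Por, Cyb5a, Pgrmc1, Alad, Hmox1 and Cyb5r3 were named after their values were seen. In the same comparison villus enterocyte markers were lower for 12 of 16 genes with a median of -0.24. Of 12 crypt and dividing cell markers on the array, 8 were above the floor on both arrays. These 8 were all higher in the immobilized rat at their brightest set, with a median of 0.55. Other sets of Ccnd1, which had 0.34 at its brightest, ranged from -0.30 to 0.58. Summed signals over the 12 were 1383 in the control rat and 1944 in the immobilized rat. The part of this in the P450 values was not tested.

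Receptors and factors that control P450 genes were above the floor for 17 of 23, with 8 higher and 9 lower and a median of 0.00 (-0.08 to 0.10 over the settings tried). Farthest from 0 were Rxra (0.92, 44.7 to 84.5) and Rxrb (-0.85, 86.7 to 48.1), both partners of the receptors that drive Cyp2b, Cyp3a and Cyp4a genes, the liver and gut factor Cebpb (0.70, 75.7 to 123) and Ppard (-0.61, 351 to 230), although other Ppard sets had -0.09 to 0.79. Ppara, the receptor behind Cyp4a induction, had 54.8 and 46.0 (-0.25) and was named after its values were seen. The Ahr set was below the floor on both arrays.

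The glucuronosyltransferases, which couple the products of P450 enzymes to glucuronic acid, were lower in the immobilized rat for 13 of 17 sets above the floor, with a median of -0.40. Over all 4105 probe sets with a ratio, 2052 were lower. Of the 17 glucuronosyltransferase sets, 2 that cover several Ugt1a genes were 2-fold lower, against 0.853% over all. They went from 806 to 361 (-1.16) and from 420 to 199 (-1.08). The next sets were at -0.96 (2255 to 1159) and -0.89 (3108 to 1679). These 4 sets are annotated to the same 6 Ugt1a symbols, and how far they read the same transcripts was not tested. Other sets of these 6 symbols above the floor were at -0.57, -0.46 and 0.35. The brightest Ugt1a sets, which also cover Ugt1a5 and Ugt1a9, were nearer to 0. Their ratios were -0.30 (6829 to 5544), -0.34 (4893 to 3864), 0.23 (4826 to 5679) and -0.40 (4512 to 3421). The highest set was that of Ugt2b35, from 1149 to 2089 (0.86). Most of the 17 sets carry overlapping Ugt1a symbols, so they are not separate measurements of different genes.

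Enzymes of epoxides, eicosanoids and retinoids, which act on the same lipids as families 2 and 4, were higher for 5 and lower for 7 of 12, with a median of -0.03 whose sign changed with the settings (-0.22 to 0.12). Ephx1, which hydrolyses epoxides of foreign compounds, was 2.22-fold higher (253 to 564), while Ephx2, which hydrolyses the fatty acid epoxides that Cyp2j and Cyp2c enzymes form, was 1.97-fold lower (626 to 318) with other sets at -0.90 and 0.01. The phospholipase Pla2g2a was at 1.72 and the retinol dehydrogenase Rdh7 at -0.57. Among P450 enzymes of other families, 7 of 29 sets were above the floor on both arrays, 5 higher and 2 lower, with a median of 0.49 (0.05 with a pseudocount and no floor). The highest were 3 sets of the sterol demethylase Cyp51 (0.70, 0.75 and 0.99), whereas its brightest set had -0.14, and a set of the bile acid enzyme Cyp27a1 (0.49). The aryl hydrocarbon-inducible Cyp1a1 had 963 and 4.07, which puts it at least 24.1-fold lower after immobilization. No member of families 2, 3 and 4 had a difference of that size.

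**Figure D4:**
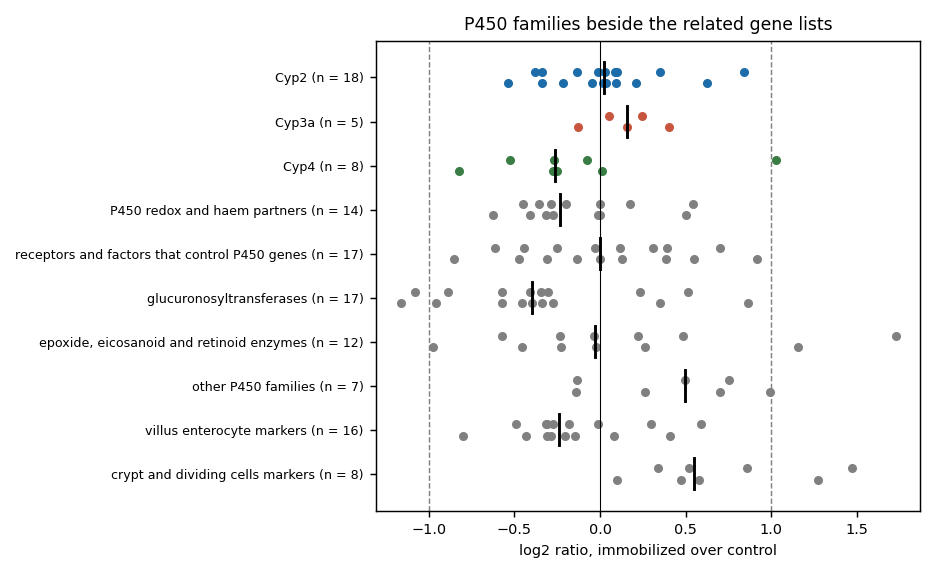
Log2 ratio of immobilized over control for each P450 set or listed gene above the floor on both arrays, in rows by family or list, with black bars at the medians and dashed lines at a 2-fold difference. The medians are 0.02 for Cyp2, 0.16 for Cyp3a and -0.26 for Cyp4. Beside them are -0.24 for the redox and haem partners and -0.40 for the glucuronosyltransferases. The receptors and factors have -0.002, the epoxide, eicosanoid and retinoid enzymes -0.03 and the other P450 families 0.49. Villus enterocyte markers have -0.24 and crypt and dividing cell markers 0.55.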

How the data were processed

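Each of the 2 rats gave 1 Affymetrix U34A array, grouped by sample title. The deposited table holds 1 signal intensity per probe set on a linear scale, made by the authors. Their signal algorithm is unsettled, since the submitters' processing notes name MAS5 and the series' design version 4.0 of the array maker's software. Detection calls were not used here. That the deposited intensity values had been scaled by the authors was seen in their 2% trimmed means, 216.0 and 215.9.

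The array annotation named 1 gene for 7006 probe sets, several for 308 and none for 1426, and 59 were array controls. Members were matched on any symbol. Scaling, floor and ratios are defined in the report. For a set detected in 1 rat the signal was divided by the floor, as a lower bound of the fold. List genes took the set with the highest mean signal among sets with 1 symbol, and glucuronosyltransferases and other P450 families were counted by set. Members above the floor on at least 1 array were named with values, those below by symbol, and up to 4 genes per pathway list farthest from 0. The members, lists and rules were chosen with earlier results of these data known. Alternatives were other scalings (deposited signals, trimmed mean, quantile, loess with span 0.3), a floor at percentile 30 or 70, a pseudocount of 20 with no floor, 1.5-fold and 3-fold thresholds, bounds counted, and other choices of probe sets. The counting was tested on simulated data. The work was done in Python 3.11.15 with statsmodels 0.14.6 for loess, scipy 1.17.1, pandas 2.3.3, numpy 2.4.6 and, for plots, matplotlib 3.10.9.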

Additional observations from a re-analysis of the deposited data

How the results depend on the processing

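No paired analysis was possible because each group has 1 array. The count of 31 P450 probe sets above the floor on both arrays fell to 20 when the floor stood at percentile 70 and was 44 at percentile 30. The single set at 2-fold higher became 0 after quantile normalization, 2 with the lower floor, percentile 30, or with bounds counted (the set of Cyp4a3 and Cyp4a2 joining Cyp4f5), 3 at 1.5-fold and 0 at 3-fold. The count of sets 2-fold lower, 0, became 1 (Cyp4b1) at 1.5-fold. The median of all members ranged from -0.05 to 0.03, that of Cyp2 from -0.05 to 0.04, that of Cyp3a from 0.03 to 0.33 and that of Cyp4 from -0.27 to -0.06. None of 204 recomputed ratios of single sets moved by over the technical SD, and 4 of the 31 sets, all near 0 (Cyp2d3, Cyp4f6, a Cyp2j3 set and a set of Cyp2b2 and Cyp2b1), changed sign in some setting. Of 99 recomputed list medians 8 moved by over that SD, in the hepatocyte, mast cell, goblet and other P450 lists. All 8 moved with the floor at percentile 30 or 70 or with the pseudocount and no floor, and none with another scaling. Those settings change which sets enter a median. Signal over background limits every value near 39.9.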

Other observations

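Marker lists of the remaining cell types were also read. Smooth muscle markers were above the floor for 5 of 8 genes, 3 higher and 2 lower in the immobilized rat. Summed signals over the 8 were 457 in the control rat and 753 in the immobilized rat. Farthest from 0 was Acta2, from 90.3 to 289 (1.68), while its other set had -0.13. Goblet, Paneth and Brunner gland markers divided, 3 higher and 3 lower of 6 above the floor. The higher genes were Lyz2 (1.03), RatNP-3b (1.44) and Pla2g2a (1.72), which is also on the eicosanoid list, each at least 2-fold. The lower genes were Muc3 (-0.81), Muc2 (-0.23) and Tff3 (-0.23). Summed signals over the 8 genes on the array were 12936 in the control rat and 11144 in the immobilized rat. Mast cell markers were above the floor on both arrays for 1 of 6 genes, with summed signals of 141.0 and 244, and leukocyte markers for 4 of 11, with 7638 and 8190.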
